A study of Mus musculus with 6 samples.

Results

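The 8 genes described here encode the enzymes and the transporter through which the adult liver makes, stores and releases glucose, together with the pyruvate kinase that runs against glucose production. They are *Pklr*, *Pcx*, *Pck1*, *Fbp1*, *G6pc*, *Slc2a2*, *Gys2* and *Pygl*, chosen by name as the liver forms of glucose metabolism genes. The rule used no measured value, but earlier results of these data were known when it was made. Each gene matched 1 row among the 25403 genes listed. Their mRNA was measured by poly(A) RNA-seq in bulk liver of 3 mice labelled WT (C57BL6/J) and 3 mice labelled whole-body *Themis*-KO. All 6 mice were fed the MASH diet, in which 40% of the energy is fat, 20% is fructose and 2% cholesterol is added, from an age of 10 to 12 weeks for 3 months, with food and water freely available. MASH, metabolic dysfunction-associated steatohepatitis, is fatty liver with inflammation and injury. The study asked how *Themis*, first known as a regulator of T cell receptor signalling in thymocytes, changes the response of the liver to this diet. The deletion is present in every cell of the mouse, T cells included, the part of the gene that was removed is not given in the sources used here, and no chow-fed liver is part of the comparison. The labels do not say when food was last taken before the livers were collected.

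In the liver, glucose 6-phosphate stands where several routes meet. After a meal it is stored as glycogen or broken down to pyruvate, and between meals it is made from glycogen and from lactate, alanine and glycerol, freed of its phosphate and exported. Insulin and glucose favour the first direction, and glucagon, glucocorticoids and the transcription factors downstream of them favour the second. Many of these enzymes are also controlled by phosphorylation and metabolites, which mRNA does not show.

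In summed level the 8 genes took between 0.434% and 0.576% of the counts of a library, and ranked high by mean CPM, from rank 61 (*Pck1*) to rank 555 (*G6pc*) among the 14496 genes that passed the filter on low counts. All 8 passed it. Library totals ran from 20679642 to 25649767 counts, and the lowest count of any of the 8 genes in any liver was 3008, so counting error was at most 1.82% of a value. Levels are given as CPM, counts relative to the library total, scaled between libraries by the TMM method and not corrected for gene length. Differences are log2 fold changes, *Themis*-KO minus WT, from edgeR's quasi-likelihood test, with p-values adjusted by the Benjamini-Hochberg method over all genes tested. A gene is said to have risen or fallen where its adjusted p was under 0.05.

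Of the 8 genes, only the liver glycogen synthase gene *Gys2* differed between the labels by this test, and it fell. Among all genes tested 9.11% passed, and among the 555 genes with a mean CPM at least that of *G6pc* 18.7% passed. All 8 fold changes were below 0, with a median of −0.26 against 0.0095 for all genes tested, and the fold change was also negative for 411 of those 555 genes (74.1%), whose median was −0.18. At an unadjusted p under 0.05 there were 3 of the 8 genes, *Gys2*, *G6pc* and *Pygl*, against 30.7% of all genes. Groups that did not overlap were seen for *Gys2* and *Pygl*, both lower in the livers labelled *Themis*-KO, where 34.6% of all genes had groups without overlap and 16.9% had them with the *Themis*-KO livers lower. In bulk liver, fewer hepatocytes and less mRNA per hepatocyte cannot be told apart.

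**Figure D1:**
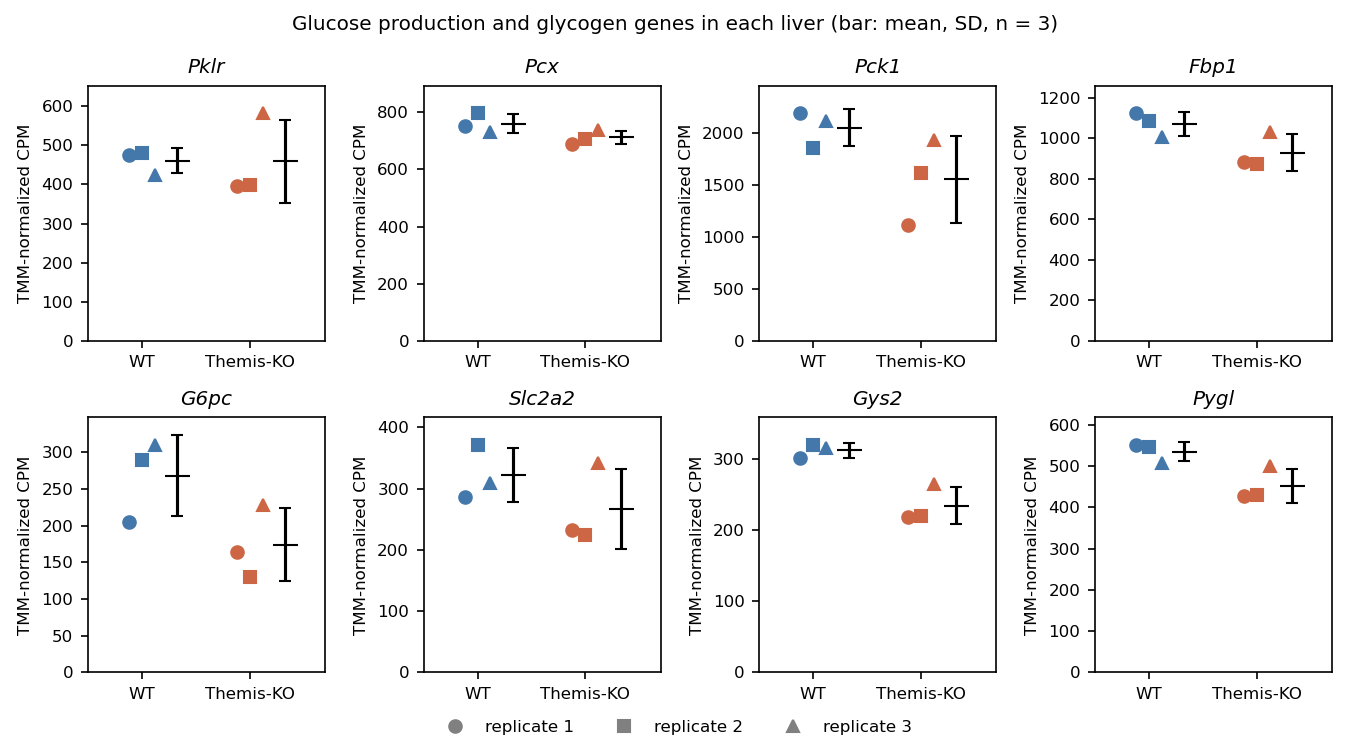
Level of each gene in each liver, in TMM-normalized CPM on an axis from 0, with the livers labelled WT in blue and those labelled *Themis*-KO in orange and a marker shape for each replicate number. Bars give the mean and SD of 3 livers. In every panel the triangle of *Themis*-KO replicate 3 is the highest of its group, and only *Gys2* and *Pygl* have groups that do not overlap.

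The label itself could not be checked by its target. *Themis* (chr10:28668360-28883818, + strand, GRCm38) had 8.07, 25.6 and 12.0 CPM in WT replicates 1 to 3 and 8.63, 7.74 and 9.97 CPM in *Themis*-KO replicates 1 to 3. The groups overlapped and the difference was −0.79 (SE 0.381, adjusted p = 0.199), and whether these counts come from the deleted part is not known here. The directions given here are therefore those of the libraries labelled *Themis*-KO and WT. WT replicates 1 and 2 also differed from the other 4 livers in the split of counts between 2 sequences. These are the mitochondrial gene *mt-Nd3* and *Gm28438*, a nuclear pseudogene of almost the same sequence. *Gm28438* held 96.6% and 96.8% of the pair's level in WT replicates 1 and 2 and 2.2% to 3.26% elsewhere. A fit with this split as a covariate, here called the mitochondrial type although no label gives one, called 0 of the 8 genes. It called 3 of all 14496 genes tested. *Nnt*, a nuclear gene for a mitochondrial protein, known to differ between C57BL/6 substrains, had 97.9, 137 and 98.1 CPM in the livers labelled WT and 88.0, 79.9 and 55.4 CPM in those labelled *Themis*-KO (log2 fold change −0.58, adjusted p = 0.098).

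Glycogen synthase and glycogen phosphorylase are the opposed enzymes of glycogen storage. *Gys2* (chr6:142422613-142473109, − strand) encodes the liver synthase, which lengthens the chain. It had 301.3, 320.6 and 315.9 CPM in WT replicates 1 to 3 and 219.3, 220.04 and 265.3 CPM in *Themis*-KO replicates 1 to 3. All 3 livers labelled *Themis*-KO lay below all 3 labelled WT. The mean was 313 ± 10.0 (SD, n = 3) against 235 ± 26.4 (SD, n = 3), and *Gys2* fell by 0.41 on the log2 scale (SE 0.101, 95% confidence interval −0.65 to −0.18, adjusted p = 0.0459 by edgeR), or by 24.9%. The call is close to its threshold and was kept in 5 of 15 other fits, although the direction was the same in all 15. It was lost with upper quartile scaling, scaling by total counts, scaling to hepatocyte markers, the replicate number as a block, the mitochondrial type as a covariate and without any 1 of the livers other than *Themis*-KO replicate 3 (adjusted p between 0.00494 and 0.434 over the 15 fits). Few of all genes passed with the replicate block (62 of 14496) or the mitochondrial type (3 of 14496).

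*Pygl* (chr12:70190811-70231488, − strand) encodes the liver phosphorylase, which releases glucose 1-phosphate from glycogen. Its CPM were 551, 546 and 508 in the livers labelled WT and 426, 429 and 500.1 in those labelled *Themis*-KO. The groups did not overlap, but *Themis*-KO replicate 3 stood just under the lowest WT liver, and the difference of −0.24 (SE 0.0981, interval −0.47 to −0.017) had an adjusted p of 0.141. The ratio of *Gys2* to *Pygl* counts within a liver, which does not depend on how libraries are scaled, was 0.546, 0.588 and 0.622 in WT replicates 1 to 3 and 0.514, 0.513 and 0.531 in *Themis*-KO replicates 1 to 3. All 3 *Themis*-KO ratios were lower. The exact two-sided permutation test gave p = 0.1, the smallest that 3 against 3 livers allow (0.133 adjusted over the 4 ratios of opposing enzymes that were computed, which were chosen after the levels were seen).

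Among the other genes of glycogen metabolism, 2 of 18 rose and 0 fell, with a median fold change of −0.037. *Pgm2*, a phosphoglucomutase-family gene, had 7.39, 7.73 and 8.37 CPM in the livers labelled WT and 14.4, 17.7 and 11.9 CPM in those labelled *Themis*-KO, a rise of 0.91 (SE 0.162, adjusted p = 0.0252). *Pgm1* of the same family, named after its values were seen, went the other way. It was at 223 to 266 CPM in WT and 168 to 224 CPM in *Themis*-KO livers, with overlap (log2 fold change −0.37, SE 0.136, adjusted p = 0.113). *Ppp1r3g*, a subunit that directs protein phosphatase 1 to glycogen, rose by 0.75 (SE 0.171, adjusted p = 0.0404), from 4.27 to 6.16 CPM in the livers labelled WT to 8.29 to 10.0 CPM in those labelled *Themis*-KO. *Ugp2*, which makes the UDP-glucose that glycogen synthase uses and has the highest CPM of the list, was at 573 to 616 CPM in WT and 705 to 776 CPM in *Themis*-KO livers. Its groups did not overlap, and the difference of 0.31 (SE 0.0875) had an adjusted p of 0.0639.

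Gluconeogenesis begins with *Pcx* and *Pck1*, which turn pyruvate into phosphoenolpyruvate. *Pcx* (chr19:4510472-4621752, + strand) encodes pyruvate carboxylase, the mitochondrial enzyme that makes oxaloacetate. It had 752, 796 and 730.2 CPM in WT and 690.0, 707 and 737 CPM in *Themis*-KO replicates 1 to 3. Its coefficient of variation was 4.4% in WT livers, where that of *Gys2* was lower (3.21%), and 3.38% in *Themis*-KO livers, the lowest of the 8 genes there. The groups overlapped, and the difference of −0.094 (SE 0.0857, adjusted p = 0.483) had an interval of −0.29 to 0.10.

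*Pck1* (chr2:173153048-173159273, + strand) encodes the cytosolic phosphoenolpyruvate carboxykinase, long used as the model gene for hormonal control of gluconeogenesis. The 250 bases before its RefSeq start, at chr2:173152823-173153072 on the + strand of GRCm38.p6, are shown because the control of this promoter by cAMP is textbook knowledge. GENCODE vM21 places the first base of *Pck1* inside that stretch. Capitals mark the letters CGTCA, the reverse complement of the cAMP response element half-site TGACG, starting 90 bases before the start, and ATTAAC, the reverse complement of the HNF1 half-site GTTAAT, starting 192 bases before it.

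Pck1: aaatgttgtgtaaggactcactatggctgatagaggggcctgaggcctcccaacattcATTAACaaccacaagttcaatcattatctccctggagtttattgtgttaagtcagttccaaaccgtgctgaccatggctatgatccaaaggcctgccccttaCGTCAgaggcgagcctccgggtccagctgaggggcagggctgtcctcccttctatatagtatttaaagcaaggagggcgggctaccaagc

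*Pck1* had the highest CPM of the 8 genes, with 2192, 1854 and 2119 in WT replicates 1 to 3 and 1113, 1616 and 1937 in *Themis*-KO replicates 1 to 3. *Themis*-KO replicates 1 and 2 were below every WT liver and replicate 3 was within the WT range. The mean was 2055 ± 178 (SD, n = 3) against 1555 ± 415 (SD, n = 3), a difference of −0.40 (SE 0.193, interval −0.85 to 0.045, adjusted p = 0.199). Leaving out *Themis*-KO replicate 1 brought the difference to −0.21 and leaving out replicate 3 brought it to −0.61 (adjusted p = 0.0366).

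*Fbp1* (chr13:62864753-62888282, − strand) encodes fructose 1,6-bisphosphatase, the step that 6-phosphofructokinase opposes. It had 1123, 1087 and 1008 CPM in the livers labelled WT and 884, 873 and 1033 CPM in those labelled *Themis*-KO. Here too *Themis*-KO replicates 1 and 2 were below every WT liver and replicate 3 was not, and the difference of −0.21 (SE 0.104, interval −0.45 to 0.035) had an adjusted p of 0.218. The ratio of the liver phosphofructokinase gene *Pfkl* to *Fbp1* was 0.0465, 0.0428 and 0.0528 in WT and 0.0676, 0.0654 and 0.0632 in *Themis*-KO replicates 1 to 3. It was higher in all 3 livers labelled *Themis*-KO (exact permutation p = 0.1, 0.133 adjusted).

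Glucose leaves the hepatocyte in the last steps, through *G6pc* and *Slc2a2*. *G6pc* (chr11:101367561-101377903, + strand) encodes the catalytic subunit of glucose 6-phosphatase, shared by gluconeogenesis and glycogen breakdown. The 250 bases before its RefSeq start, chr11:101367466-101367715 on the + strand of GRCm38.p6, are shown beside those of *Pck1* because both genes are textbook targets of fasting hormones. GENCODE vM21 places the first base of this gene inside that stretch. Capitals mark the HNF1 half-site GTTAAT, starting 221 bases before the RefSeq start, and the TATA box core TATAAA, starting 29 bases before it.

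G6pc: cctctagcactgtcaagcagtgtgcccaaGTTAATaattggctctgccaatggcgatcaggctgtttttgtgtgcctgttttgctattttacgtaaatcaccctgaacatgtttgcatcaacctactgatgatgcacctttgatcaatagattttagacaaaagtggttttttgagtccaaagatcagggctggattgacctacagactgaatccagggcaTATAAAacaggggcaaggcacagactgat

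*G6pc* had 205, 289 and 309.9 CPM in WT replicates 1 to 3 and 164, 129 and 228 CPM in *Themis*-KO replicates 1 to 3. WT replicate 1 lay below *Themis*-KO replicate 3, so the groups overlapped by this pair alone. The difference was the largest of the 8 genes, −0.62 (SE 0.227, interval −1.149 to −0.098), and did not pass with all genes considered (adjusted p = 0.113). It passed in 3 of 15 other fits, with DESeq2 (adjusted p = 0.0343), without a filter on low counts and without *Themis*-KO replicate 3.

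*Slc2a2* (chr3:28697903-28731359, + strand) encodes GLUT2, the transporter that carries glucose across the hepatocyte membrane in both directions. It had 286, 371 and 309.5 CPM in the livers labelled WT and 233, 224 and 341 CPM in those labelled *Themis*-KO. *Themis*-KO replicate 3 exceeded 2 of the 3 WT livers and the other two lay below all of them. The difference of −0.28 (SE 0.179, interval −0.69 to 0.14) had an adjusted p of 0.325.

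Other genes of these pathways were counted from lists, and 8 of them passed. The calls of all 8 of these pathway genes were lost with the replicate number as a block and with the mitochondrial type as a covariate. Those fits called 62 and 3 of all 14496 genes. Of the 17 other gluconeogenic enzymes and transporters, 0 rose and 1 fell, with a median fold change of −0.16. *Mdh1*, the cytosolic malate dehydrogenase of the malate shuttle, fell by 0.54 (SE 0.0982, adjusted p = 0.0255), from 406 to 469 CPM in WT to 294 to 330.0 CPM in *Themis*-KO livers. *Gpt2*, a mitochondrial alanine aminotransferase with the highest CPM of the list, was at 586 to 672 CPM in WT and 738 to 885 CPM in *Themis*-KO livers (log2 fold change 0.32, SE 0.107, adjusted p = 0.0924). *Slc37a4*, named after its values were seen, encodes the transporter that brings glucose 6-phosphate to *G6pc*. It was at 140, 123 and 121 CPM in WT and 66.8, 86.6 and 114 CPM in *Themis*-KO replicates 1 to 3, with groups that did not overlap (log2 fold change −0.52, SE 0.181, adjusted p = 0.102).

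*Pklr* (chr3:89136142-89146784, + strand) encodes the pyruvate kinase of liver and red cells, the last step of glycolysis, and is a classical gene of the fed, carbohydrate-rich state. It has an upstream promoter used in red cells and a downstream promoter used in liver. The 250 bases before the downstream RefSeq start, chr3:89136373-89136622 on the + strand of GRCm38.p6, are shown because this promoter is known for its carbohydrate response element. Capitals mark, from 170 bases before the start, the letters CACG and CGTG separated by 9 bases, and the TATA box core TATAAA, from 31 bases before the start.

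Pklr, downstream start: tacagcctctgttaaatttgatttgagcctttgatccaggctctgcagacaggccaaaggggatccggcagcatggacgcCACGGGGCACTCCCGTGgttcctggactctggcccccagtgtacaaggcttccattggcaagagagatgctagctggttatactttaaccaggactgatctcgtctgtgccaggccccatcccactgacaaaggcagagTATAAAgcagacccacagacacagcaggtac

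The pair of CACG and CGTG was searched for after the sequence was seen, and 0.280% of 32817 RefSeq promoter windows of 250 bases before to 50 bases after a start hold it. The other motifs were looked for on both strands of the same windows. The cAMP half-site TGACG was in 20.8% of all windows, the E-box CACGTG in 7.15%, the forkhead core GTAAACA in 3.65%, the HNF1 half-site GTTAAT in 7.1% and TATAAA in 13.6%. No 2 of these strings share letters at a match shown. RefSeq windows were found for 7 of the 8 genes. Besides those shown, the TGACG string was found before *Pygl* and CACGTG before the upstream start of *Pcx*, and the windows of *Fbp1*, *Slc2a2*, the upstream start of *Pklr* and the downstream start of *Pcx* held none of the 6 strings. No window of the 7 genes held GTAAACA.

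*Pklr* stood apart from the rest in its size of change but not in its order of livers. It had 477, 481 and 425 CPM in WT replicates 1 to 3 and 397, 398 and 582 CPM in *Themis*-KO replicates 1 to 3. *Themis*-KO replicates 1 and 2 were the 2 lowest of the 6 livers and replicate 3 the highest. The mean was 461 ± 31.3 (SD, n = 3) against 459 ± 106 (SD, n = 3), and the log2 fold change of −0.0052 (SE 0.159, adjusted p = 0.986) had an interval of −0.37 to 0.36, so a difference within that interval could not be told from none with these livers. Its sign was negative in 7 and positive in 8 of 15 other fits. The ratio of *Pklr* to *Pck1* was 0.217, 0.26 and 0.20 in WT and 0.357, 0.247 and 0.300 in *Themis*-KO replicates 1 to 3, and its groups overlapped (exact permutation p = 0.2, 0.2 adjusted).

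Among 17 other glycolytic and fructolytic enzymes and their regulators, 0 rose and 1 fell, and the median fold change was 0.0056. *Pdk2*, a kinase that switches off pyruvate dehydrogenase, fell by 0.53 (SE 0.12, adjusted p = 0.0396), from 117 to 129 CPM in WT to 75.8 to 101 CPM in *Themis*-KO livers. *Pdk4*, named after its values were seen, was lowest in replicate 3 among the livers labelled *Themis*-KO, where *Pklr* was highest, at 149, 85.2 and 17.2 CPM, against 13.7, 11 and 21.7 CPM in those labelled WT (log2 fold change 2.44, SE 0.668, adjusted p = 0.0596).

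**Figure D2:**
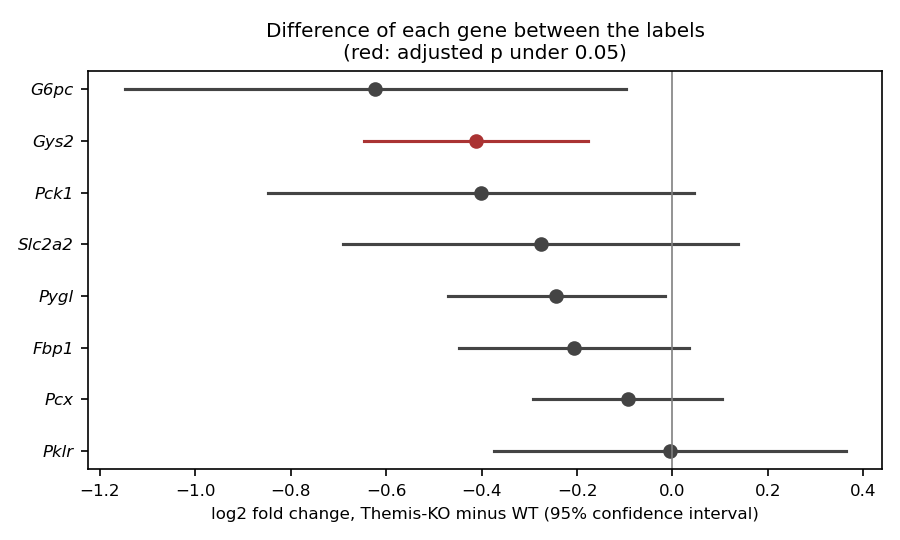
Log2 fold change of each of the 8 genes, *Themis*-KO minus WT, as points with 95% confidence intervals from the fit over all genes, ordered by size. All 8 points lie below 0, from −0.62 for *G6pc* to −0.0052 for *Pklr*, the intervals of *G6pc*, *Gys2* and *Pygl* do not reach 0, and only *Gys2* (red) had an adjusted p under 0.05.

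The 8 genes ordered the livers labelled *Themis*-KO alike. *Themis*-KO replicate 3 was the highest of its group in 8 of 8 genes, replicates 1 and 2 were below every WT liver in 8 of 8, and replicate 3 was below every WT liver in 2 of 8. Measured as the median deviation of the 8 genes from their means over the 6 livers, the WT livers were at 0.11, 0.14 and 0.074 and the *Themis*-KO livers at −0.25, −0.19 and 0.081 on the log2 scale. The genes share their libraries, so these are not 8 separate observations. How many of all genes tested had the same order was not counted. By the same median deviation, *Themis*-KO replicate 3 also stood above replicates 1 and 2 in related lists. Other gluconeogenic genes were at −0.17, −0.11 and 0.070, and glycolytic and fructolytic genes at −0.072, −0.068 and 0.076. Other glycogen genes were at −0.067, −0.074 and 0.15, and feeding-induced genes at −0.44, −0.31 and 0.57. Regulators of glucose output (−0.063, −0.098 and −0.13) and other isozymes (0.34, 0.18 and 0.24) differed. By this measure the order is not particular to these 8. Without *Themis*-KO replicate 3, 5 of the 8 genes passed the test, *G6pc* (−0.88), *Pck1* (−0.61), *Gys2* (−0.52), *Slc2a2* (−0.51) and *Pygl* (−0.34), and all were lower. In that fit 4267 of 14806 genes passed, against 1321 of 14496 with all 6 livers. Leaving out any 1 of the other 5 livers called 0 of the 8 genes, but few of all genes passed there too. Without WT replicates 1, 2 and 3, 44 of 14830, 76 of 14855 and 850 of 14830 genes passed. Without *Themis*-KO replicates 1 and 2, 20 of 14738 and 68 of 14771 genes passed.

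**Figure D3:**
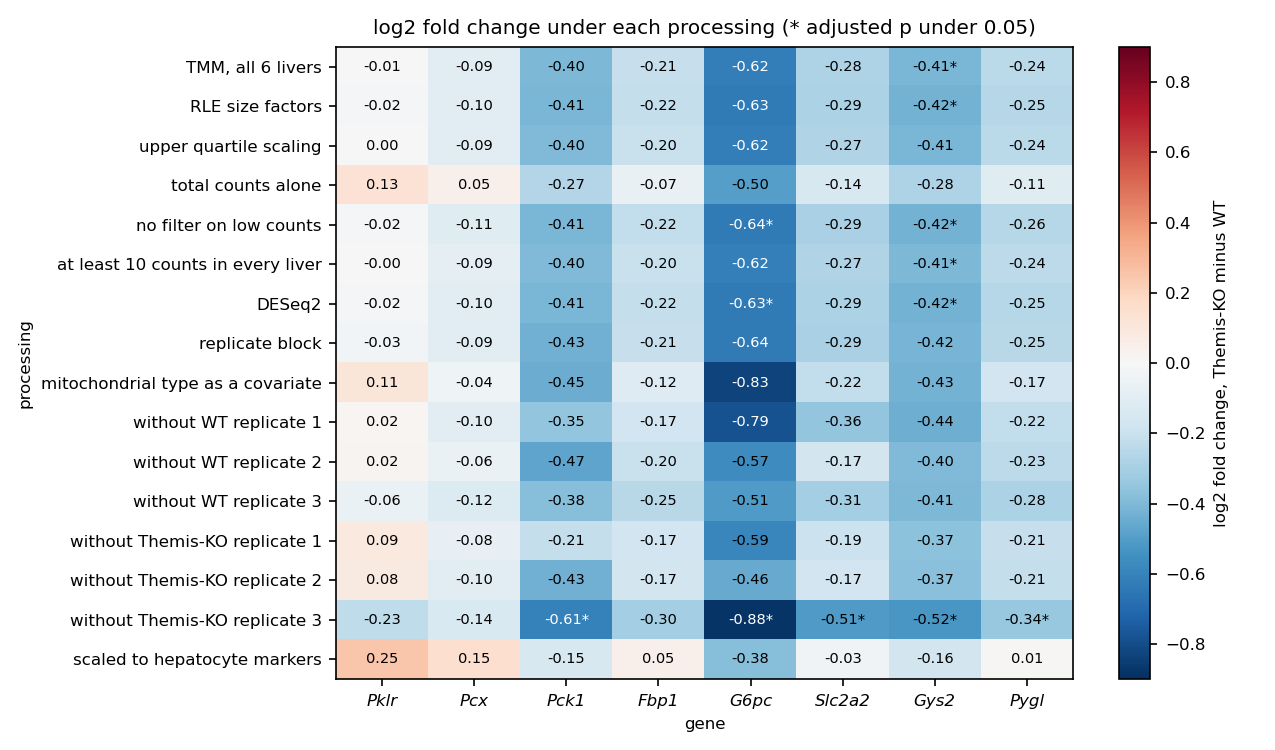
Log2 fold change of each gene (columns) with all 6 livers under TMM scaling (top row) and under 15 other ways of processing the counts (other rows), in blue where the level was lower in the livers labelled *Themis*-KO and red where it was higher, with an asterisk for an adjusted p under 0.05. *Gys2*, *G6pc*, *Pck1* and *Slc2a2* are below 0 in every row, *Pklr* changes sign, and 5 asterisks stand in the row without *Themis*-KO replicate 3.

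Feeding state was described with textbook lists. Of 10 feeding-induced genes 0 rose and 0 fell, and their summed level, mostly that of the desaturase gene *Scd1*, was 31947 to 38579 CPM in the livers labelled WT, 27664 and 25021 CPM in *Themis*-KO replicates 1 and 2 and 36124 CPM in replicate 3. *Fasn*, the fatty acid synthase gene, was at 758 to 915 CPM in WT and at 668, 752 and 1746 CPM in *Themis*-KO replicates 1 to 3. Of 10 fasting-induced genes 1 rose (*Igfbp1*) and 1 fell (*Cyp4a10*, a fatty acid hydroxylase, by 1.21, adjusted p = 0.0266), and their summed level was 3614 to 4320 CPM in WT and 3325 to 3800 CPM in *Themis*-KO livers. *Cpt1a*, of fatty acid import into mitochondria, had a fold change of −0.38 (adjusted p = 0.0605). The part of feeding state in the order of the *Themis*-KO livers was not tested.

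Among 25 genes listed as transcriptional and hormonal regulators of glucose output, 2 rose and 1 fell, with a median fold change of −0.21. The gene that fell, *Gnmt*, encodes glycine N-methyltransferase, an enzyme and not itself such a regulator. It fell by 0.95 (SE 0.109, adjusted p = 0.00936), from 615 to 716 CPM in WT to 314 to 383 CPM in *Themis*-KO livers. *Igfbp1*, an insulin-repressed secreted binding protein, rose by 1.81 (SE 0.449, adjusted p = 0.0471), and had 37.8, 26.4 and 63.8 CPM in WT and 195, 188 and 66.2 CPM in *Themis*-KO replicates 1 to 3, so that *Themis*-KO replicate 3 was only just above the highest WT liver. *Hnf4a*, which encodes a hepatocyte nuclear receptor and had the highest CPM of the other regulators, was at 421 to 499 CPM in WT and 388 to 542 CPM in *Themis*-KO livers (log2 fold change 0.045, adjusted p = 0.842). *Mlxipl*, which encodes the carbohydrate response factor ChREBP and is named after its values were seen, was at 391 to 525 CPM in WT and 330.1 to 376 CPM in *Themis*-KO livers, without overlap (log2 fold change −0.35, SE 0.127, adjusted p = 0.110).

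For 7 of the 8 genes, all but *Pcx*, other isozymes used by other tissues or cell types were listed. Per kilobase of exon, the order of the 8 genes in the livers labelled WT was *Fbp1* (630.3 ± 34.6 CPM per kb, SD, n = 3), *Pck1* (599 ± 52.0), *Pcx* (160 ± 7.03), *Pklr* (142 ± 9.68), *Gys2* (118 ± 3.78), *G6pc* (111 ± 23.0), *Pygl* (77.6 ± 3.42) and *Slc2a2* (56.0 ± 7.67). *Fbp1* and *Pck1* overlapped over the 3 livers, as did *Gys2* and *G6pc*, and all other neighbours in this order were separate. The order depends on the length used. With the longest transcript of each gene *Pck1* came first (753 CPM per kb), ahead of *Fbp1* (725), and *Pygl*, whose longest transcript has 3150 of its 6895 exon bases, moved from rank 7 to rank 4 (169.8 CPM per kb).

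**Figure D4:**
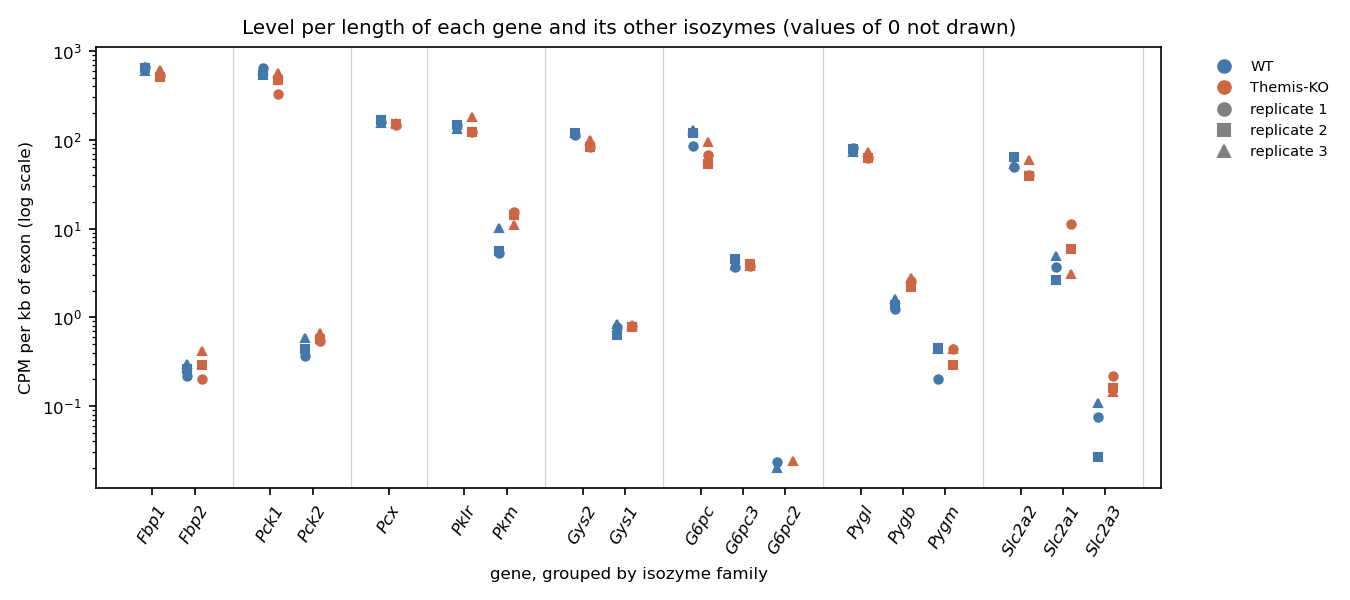
Level of each gene and its other isozymes per kilobase of exon (log axis, CPM per kb), with 1 point per liver, WT in blue and *Themis*-KO in orange. In every family the liver gene lies above its other isozymes in all 6 livers, and *Pkm* and *Pygb* are higher in all 3 livers labelled *Themis*-KO.

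The liver gene supplied most of its family's summed level per kilobase in every liver. The share of *Pygl* among *Pygl*, *Pygb* and *Pygm* was 98.2%, 97.7% and 97.3% in WT and 95.4%, 96.1% and 95.7% in *Themis*-KO replicates 1 to 3, lower in all 3. The mean difference was −1.996 percentage points, and −1.149 with the length of the longest transcript. *Gys2* took 99.4% ± 0.101 (SD, n = 3) of its family in WT and 99.1% ± 0.0780 in *Themis*-KO livers, and *Pck1* took 99.92% ± 0.0196 and 99.87% ± 0.0270, both also without overlap. The exact two-sided permutation p was 0.1 for each of the 3 (0.233 adjusted over 7 families). The shares of *Pklr* (95.2% and 90.9%), *G6pc* (96.4% and 94.7%), *Slc2a2* (93.5% and 86.5%) and *Fbp1* (99.96% and 99.95%) overlapped between the groups.

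Of the 10 other isozymes, 8 could be tested, 1 rose and 0 fell. *Pygb*, the brain phosphorylase, rose by 0.83 (SE 0.151, adjusted p = 0.0262), with 5.96, 6.67 and 7.77 CPM in the livers labelled WT and 12.2, 10.6 and 13.5 CPM in those labelled *Themis*-KO. *Pkm*, the pyruvate kinase of most other cells, had 26.7, 27.6 and 50.7 CPM in WT and 77.2, 71.9 and 54.9 CPM in *Themis*-KO replicates 1 to 3, without overlap (log2 fold change 0.95, SE 0.255, adjusted p = 0.0562). *Slc2a1*, the GLUT1 gene, had 12.9, 9.26 and 17.0 CPM in WT and 39.6, 20.4 and 10.7 CPM in *Themis*-KO livers (adjusted p = 0.225), and *Slc2a3*, the GLUT3 gene, was at most 1.57 CPM in any liver (log2 fold change 1.26, adjusted p = 0.101). The fold changes of *G6pc3* (−0.068), *Pck2* (0.34), *Gys1* (0.085) and the muscle phosphorylase gene *Pygm* (0.098) had adjusted p-values of 0.749, 0.314, 0.761 and 0.870. *Fbp2* and *G6pc2* were too low to test, at no more than 0.614 and 0.0472 CPM.

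The hepatocyte markers gave negative fold changes too, and single markers ordered the livers labelled *Themis*-KO in different ways. In *Themis*-KO replicates 1 to 3, *Alb* had 33597, 33657 and 37327 CPM and *Ahsg* had 4923, 5651 and 3716 CPM. The median deviation of these markers was −0.069, −0.18 and −0.12 in the same livers, lowest in replicate 2. Of 11 hepatocyte markers 0 rose and 1 fell (*Apoh*, a plasma protein gene named after its value was seen, by 0.46, adjusted p = 0.0429), all 11 fold changes were below 0 with a median of −0.29, and their summed level was 69150 to 80895 CPM in the livers labelled WT and 61659 to 63718 CPM in those labelled *Themis*-KO, lowest in replicate 3. *Alb*, the albumin gene, was at 39776 to 43024 CPM in WT and 33597 to 37327 CPM in *Themis*-KO livers (log2 fold change −0.26, adjusted p = 0.185), and *Ahsg* had a fold change of −0.087 (adjusted p = 0.794). With libraries scaled to the summed hepatocyte markers, a choice made after the levels were seen, *Gys2* was at −0.16, *Pck1* at −0.15, *G6pc* at −0.38 and *Slc2a2* at −0.034, *Pygl* (0.0074), *Fbp1* (0.046), *Pcx* (0.15) and *Pklr* (0.25) turned positive, and 0 of the 8 genes passed. That scaling also moved the median of all genes to 0.26. A change of scaling shifts all genes by nearly the same amount, so it cannot show how the 8 genes stand against other genes.

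Other cell types and zones also moved. Periportal hepatocyte markers, of the zone where gluconeogenesis is most active, fell in 5 of 11 and rose in 0 (summed level 6856 to 8183 CPM in WT, 4988 to 5646 CPM in *Themis*-KO), and pericentral markers fell in 6 of 11 and rose in 0 (7816 to 12117 and 4371 to 5956 CPM). *Cps1* and *Ass1* of the urea cycle had the highest CPM of the periportal genes (−0.81, adjusted p = 0.0706, and −0.49, adjusted p = 0.0480), and *Cyp2e1* and *Glul* of the pericentral ones (−1.07, adjusted p = 0.0304, and −0.43, adjusted p = 0.111). Hepatic stellate cell markers rose in 7 of 11 (394 to 447 CPM in WT, 597 to 663 CPM in *Themis*-KO), led in level by *Dcn* (0.39, adjusted p = 0.0423) and *Col3a1* (0.94, adjusted p = 0.00936). Macrophage markers rose in 4 of 12 (470.1 to 752.0 and 752.3 to 962 CPM), with *Cd5l* (0.70, adjusted p = 0.0649) and *Mpeg1* (0.50, adjusted p = 0.0304) highest in CPM.

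Cholangiocyte markers rose in 1 of 8 tested (167 to 207 and 399 to 630.1 CPM, most of it *Spp1*, which rose by 1.44, adjusted p = 0.0131). Endothelial markers rose in 1 of 9 (306 to 348 and 342 to 388 CPM, with *Stab1* at 0.25 and *Stab2* at 0.074, adjusted p = 0.172 and 0.649). T cell markers fell in 1 of 6 tested (4.99 to 6.47 and 3.91 to 8.37 CPM, with *Cd4* falling by 1.46, adjusted p = 0.0386, and *Lck* at 0.57, adjusted p = 0.407), and B cell markers changed in 0 of 7 (13.6 to 22.8 and 9.59 to 20.4 CPM, with *Ighm* at −0.41 and *Cd22* at 0.30, adjusted p = 0.294 and 0.607). No listed marker was at 0 in every liver, and 1 cholangiocyte marker was at 0 in 1 liver. Of 4 sex-linked genes tested 0 changed, and *Eif2s3y* (52.1 to 69.2 CPM) and *Ddx3y* (36.3 to 45.4 CPM), both Y-linked, were expressed in all 6 livers. The part of hepatocyte content, zone and other cell types in the levels of the 8 genes was not tested.

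**Figure D5:**
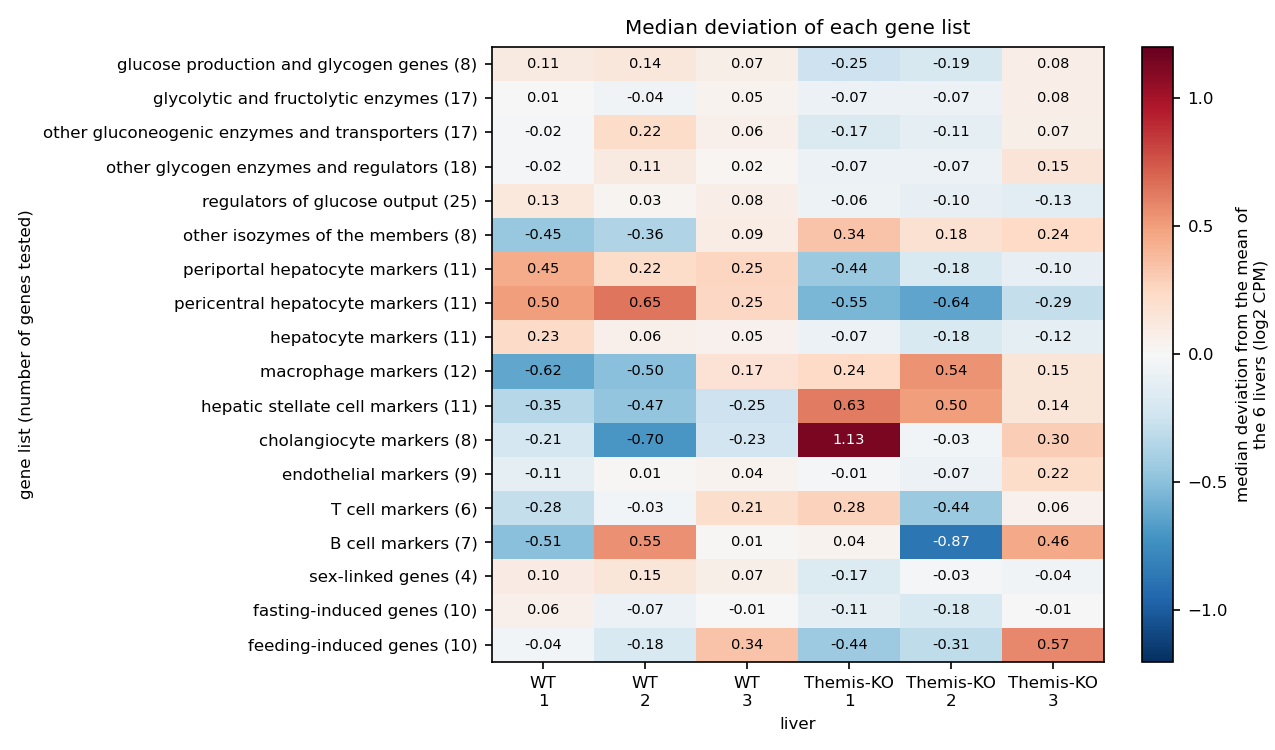
Median deviation of the genes of each list (rows, with the number of genes tested) from their means over the 6 livers, for each liver (columns), in log2 CPM, blue below and red above the mean. The row of the 8 glucose genes is lowest in *Themis*-KO replicates 1 and 2 (−0.25 and −0.19) and near the WT livers in replicate 3 (0.081). The rows of other gluconeogenic, glycolytic, other glycogen and feeding-induced genes also have *Themis*-KO replicate 3 above replicates 1 and 2. Pericentral markers are below the mean in all 3 *Themis*-KO livers and stellate cell markers above it.

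For each of the 8 genes, the 3 tested genes nearest to it by the mean absolute difference of centred log2 CPM over the 6 livers were listed as a description. *Pck1* was nearest to the arginase gene *Arg1* (difference 0.0379), *Prdm9* and *Actr6*. *G6pc* was nearest to the lipase inhibitor gene *G0s2* (0.0657), *Paqr7* and *E330011M16Rik*. *Gys2* was nearest to *Ccdc28a* (0.0280), *Mcat* and *Ndufaf4*, and *Pygl* to the proteasome subunit gene *Psmb7* (0.0125), *Fars2* and *Mpg*. *Slc2a2* was nearest to *Gamt* (0.0333), which makes creatine, then *Pfkm* and *Aagab*. *Fbp1* was nearest to *Fam171b* (0.0152), *Mdp1* and *Chchd3*, *Pcx* to *Mrpl17* (0.00809), *Fam92a* and *Emc4*, and *Pklr* to *Ppip5k1* (0.0394), *Ccdc61* and *Jmjd7*. The nearest were taken from 14496 genes over only 6 livers, and none of the 8 genes was among the 3 nearest of another.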

How the data were processed

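Liver RNA of 3 mice labelled WT and 3 labelled *Themis*-KO was sequenced as paired-end poly(A) libraries. The submitters' processing notes name cutadapt 2.3, STAR 2.7.8a and RSEM 1.3.3 with GRCm38, and the authors deposited estimated counts per gene and liver, which are whole numbers and not normalized. RSEM divides reads that fit several genes. The annotation release is not given in the sources used here. Nothing in the labels says whether livers shared a litter or day, so p-values measure the spread between these livers. No pair of libraries agreed within sampling noise (lowest chi-square per degree of freedom 9.12).

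The analysis used edgeR 4.0.16 and limma 3.58.1 under R 4.3.3. The filterByExpr step removed 10907 of 25403 genes, libraries were scaled by TMM, and glmQLFit and glmQLFTest compared all 6 livers without covariates, with Benjamini-Hochberg adjustment over 14496 genes. The study used DESeq2 on genotype, and DESeq2 1.42.0 was an alternative here. SE came from the fold change and its F statistic. Log2 CPM used a prior count of 2. Single values were compared by exact two-sided permutation tests over livers. Script behaviour was tested on simulated data. Gene positions and exon lengths are from GENCODE vM21 (GRCm38), and promoter sequences from RefSeq (GRCm38.p6). Figures were drawn with matplotlib 3.10.9.

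The 8 genes and all lists were chosen with earlier results of these data known. Genes named are the 8 genes, *Themis*, *Nnt*, the other isozymes, in each pathway list those with an adjusted p under 0.05 and the most abundant of the rest, in other lists the 2 most abundant, and for each of the 8 genes its 3 nearest. *Gm28438*, *mt-Nd3*, *Pfkl*, *Slc37a4*, *Mlxipl*, *Pdk4*, *Cyp4a10* and others said to be so were named after their values were seen. Some genes within the naming rule and 1 ratio are not reported here. One hepatocyte marker was not found under its symbol. Same-numbered livers had correlations of −0.24 to 0.00028 in their deviations from the group means, so the numbers were not taken as pairs.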

Additional observations from a re-analysis of the deposited data

How the results depend on the processing

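With TMM scaling and all 6 livers, 1 of the 8 genes (*Gys2*) had an adjusted p under 0.05. The count was 0 with upper quartile scaling, with scaling by total counts, with the mitochondrial type as a covariate and with libraries scaled to hepatocyte markers (an alternative chosen after seeing the data), and 2 (*G6pc* and *Gys2*) without a filter on low counts and with DESeq2. Leaving out 1 liver gave from 0 to 5, and only the fit without *Themis*-KO replicate 3 gave 5. With the replicate block the count was 0. Same-numbered livers had a mean correlation of −0.13, so the numbers were not taken as pairs. The mean of 0.066 for differently numbered livers adds little, since centring each group on its own mean nearly ties it to the first value. With 3 livers a group, these values cannot exclude a shared litter or day. The study speaks of 3 pairs of livers without saying what made a pair. RLE size factors, a minimum of 10 counts in every liver and an adjusted p threshold of 0.1 left the count at 1.

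*Pklr*, at −0.0052, turned positive with upper quartile scaling (0.0011), total counts (0.13), the mitochondrial type (0.11) and hepatocyte-marker scaling (0.25), and in 4 of the 6 fits that left out a liver, which gave values between −0.23, when the third *Themis*-KO liver was dropped, and 0.086, when the first was. The other 3 positive values were 0.018 and 0.024, without WT replicates 1 and 2, and 0.082, without the second *Themis*-KO liver. *Pcx* turned positive with total counts (0.045) and with hepatocyte-marker scaling (0.15), which also turned *Fbp1* (0.046) and *Pygl* (0.0074). None of these passed the test. *Pck1*, *G6pc*, *Slc2a2* and *Gys2* kept their sign in all 15 alternatives. Scaling by total counts moved the median fold change of all genes from 0.0095 to 0.147. The causes of these shifts were not tested.

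The number of all genes called was 1321, against 2179 without a filter, 2369 with DESeq2, 62 with the replicate block, 3 with the mitochondrial type and 3558 with hepatocyte-marker scaling. It was 44, 76 and 850 without WT replicates 1, 2 and 3 and 20, 68 and 4267 without *Themis*-KO replicates 1, 2 and 3. Refitted as alternatives added after seeing the data, the number of other pathway genes called was 8, against 15 with total counts, 16 without a filter, 20 with DESeq2, 0 with the replicate block, 0 with the mitochondrial type, 21 with hepatocyte-marker scaling and 0 to 32 with a liver left out (0 when the first liver of either group was dropped, 32 when the third *Themis*-KO liver was). *Gnmt* was called in 11 of the 15 alternatives, *Pgm2*, *Igfbp1* and *Pygb* in 9, *Mdh1* and *Ppp1r3g* in 8 and *Pdk2* in 6, with 0 reversals among them or among the markers called. All 7 differences in isozyme share kept their direction with the length of the longest transcript. With 3 livers a group, the spread between livers and not the depth limits what can be detected for these genes.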
